A study of Gallus gallus with 2 samples.

Results

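The splicing of genes for the mitochondrial respiratory chain, the mitochondrial ribosome, protein import and related functions was examined in DT40, a chicken lymphoblast line of the B-cell lineage that comes from the bursa. The members are all listed splicing events of genes whose names mark them as respiratory chain or ATP synthase subunits, mitochondrial ribosomal proteins, TIM and TOM import components, SLC25 carriers, membrane-shaping proteins, CHCHD proteins or factors of mitochondrial DNA maintenance. The name rule took 106 of the 10652 rows of the deposited table, under 76 gene names. It used names only and no measured value. Names of MFN1, MFN2, DNM1L, TFAM and POLRMT were in the rule, but no row used here carried them.

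RNA was sequenced from SRSF10-deficient cells (KO, genotype SRSF10-/-) and from wild-type cells (WT), with 1 poly(A) library each. SRSF10 is an RNA-binding splicing factor of the SR family, and the study asked which splicing events depend on it. With 1 library per genotype nothing could be checked against replicates, and each test on reads sets 1 library against the other rather than the genotypes. The labels do not say whether the KO line is 1 clone. SRSF10 itself had 0 rows, so the KO label could not be checked against its target gene. Of 20 B-lymphocyte genes looked up, 11 were listed, with 9125 event reads in KO and 7985 in WT. The others, among them PAX5, BTK and SYK, had no listed event, which does not measure their expression. Of 8 genes of other lineages, 3 were listed, with 138 event reads in KO and 120 in WT. Total sequencing depth is not given in the sources used here, and the listed event reads summed to 2022343 in KO and 2047625 in WT.

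Nearly all mitochondrial proteins are encoded in the nucleus, made in the cytosol and imported through the TOM channel of the outer membrane and the TIM translocases of the inner membrane. The respiratory complexes pass electrons to oxygen and pump protons, which drive the ATP synthase, and the mitochondrial ribosome makes the few core subunits encoded in mitochondrial DNA. Splicing of these nuclear genes can set isoforms of membrane-shaping proteins such as OPA1, whose alternative exons are well known in human.

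For every event the table lists the reads that support exclusion and those that support inclusion. The inclusion level is inclusion reads as a percent of both, and differences are KO minus WT in percentage points. An event was tested with at least 20 reads in each library, by Fisher's exact test (two-sided) on its 4 read counts. The p-values were adjusted by Benjamini-Hochberg over the 6089 events of the table with that many reads. A change was called where the adjusted p was below 0.05 and the levels were 10 or more points apart. Intervals are 95% Clopper-Pearson intervals for levels and 95% Newcombe intervals for differences. Where a library had 0 inclusion reads, the upper limit printed is instead 3 reads as a percent of its total. All cover counting error only, since each genotype had 1 library. They also take each read as an independent molecule, which reads without molecular identifiers need not be. For every event type except those with no defined type, the libraries differed by more than counting error. A second adjusted p is therefore given, called the spread-corrected p below. It comes from a chi-square divided by a factor, the median inflation over the events of that type. The factor was 3.97 for cassette exons, 2.29 for alternative 5' sites, 2.18 for alternative 3' sites, 3.26 for retained introns and 13.7 for mutually exclusive rows. For events with no defined type the inflation was 0.162, and the factor was held at 1. Each factor was taken from this same pair of libraries, so it holds any differences between the genotypes as well as spread between libraries. A high spread-corrected p therefore does not show that a difference is noise.

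Of the 106 rows, 3 held 3 numbers per library with no stated order and were not used, namely those of TOMM22, CHCHD1 and TOMM70A. Of the other 103 events, 87 in 67 genes had enough reads for the test, and 16 did not. SLC25A21 had 2 events with 0 reads in both libraries. Among the 87 tested events, 9 in 8 genes changed (10.3%), against a background of 4.7% of all tested events. Inclusion was higher in KO in 3 of them (background 2.48%) and lower in 6 (background 2.22%). The changed genes were COX7A2L, CHCHD2, NDUFB5, CYCS, ATP5H, TOMM40L, SLC25A39 and IMMT. NDUFB5 was counted with 2 rows that mirror each other, 1 in each direction. With 1 row per mirrored pair, an alternative chosen after seeing the data, 8 of 86 mitochondrial events changed (9.30%), against 4.65% of all. At mutually exclusive exons and competing sites, the direction depends on which form is listed as inclusion. Among the calls at cassette exons, 1 was higher and 1 lower. The other 78 tested events did not pass. An adjusted p under 0.05 at any difference was found in 11 (12.6%, against 5.8% of all), and a difference of 10 points or more, whatever its p, in 15 (17.2%, against 15.1% of all). The median absolute difference was 2.19 points in mitochondrial events and 2.36 points over all tested events.

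That share has to be read with depth and event type. The mitochondrial events were deeper, with a median of 185 reads in KO and 237 in WT, against 98 and 95 reads over all tested events. With at least 100 reads in each library, 7 of 54 mitochondrial events changed (13.0%) against 5.57% of all. Mutually exclusive rows supplied 4 of the 9 calls, and 46.7% of all such rows were called in the whole table. Those 4 rows give their position without the prefix chr, which the called events of other types carry. Why the format differs is not stated, and whether such rows were listed by another rule was not tested. Without mutually exclusive rows, 5 of 82 mitochondrial events changed (6.10%), against 4.02% of all. Events with no defined type, of which 0.712% were called in the whole table, were 13.8% of the tested mitochondrial events and 25.4% of all. With both types left out, 5 of 70 mitochondrial events changed (7.14%), against 5.41% of all. With the spread-corrected p, 2 of the 87 kept the call, CYCS and COX7A2L (2.30%, against 0.903% of all). The parts of depth and event type in the share were not tested.

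**Figure D1:**
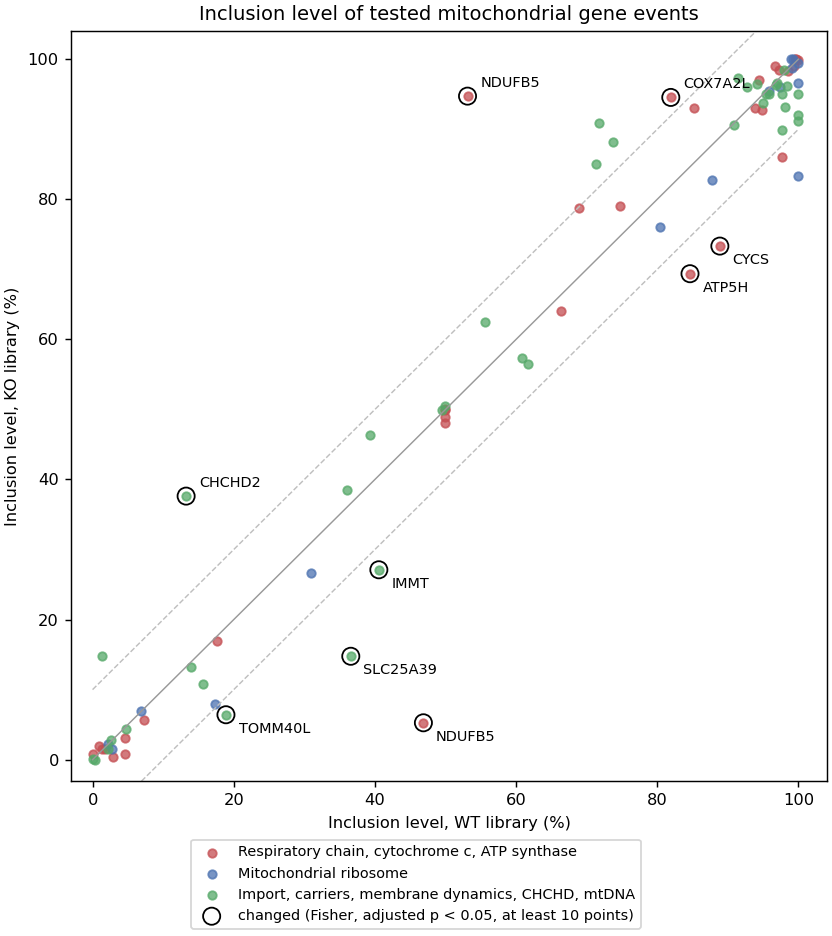
Inclusion level in the KO library (vertical axis, percent) against the WT library (horizontal axis, percent) for the 87 tested events, coloured by function, with dashed lines 10 points from equality and rings on the 9 changed events. Most points lie near the diagonal, and those of CHCHD2, COX7A2L and 1 row of NDUFB5 lie above it among the ringed ones.

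Inclusion was at least 95% in both libraries in 22 tested events and at most 5% in both in 14. Together these events near a single form were 41.4% of the tested mitochondrial events, against 35.7% of all tested events. By this definition none of these 36 could differ by more than 5 points, so none could be called. The 9 calls therefore had to come from the other 51 events, in 43 genes. Of the 87, 61 (70.1%) differed by less than 5 points, against 69.4% of all tested events.

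The respiratory chain begins with complex I, the NADH dehydrogenase, where 14 events in 10 genes were tested. The widest difference was in NDUFB5, an accessory subunit of the complex, in a pair of mutually exclusive exons on chromosome 9 in the galGal4 build. The exon from 16906041 to 16906111 had 36 of 38 reads in KO, a level of 94.7% (82.3 to 99.4), against 17 of 32 reads in WT, 53.1% (34.7 to 70.9). Its partner, from 16905686 to 16905747, mirrored these counts, with 5.26% in KO and 46.9% in WT. Both rows thus describe 1 choice of exon, made almost wholly one way in KO and about evenly in WT. The difference was 41.6 points (21.6 to 58.7), with a Fisher's exact adjusted p of 0.00191 and a spread-corrected p of 1.00. It rests on few reads, and under a minimum of 50 reads it was not tested. An alternative 5' site of NDUFB5 had 1.49% in KO and 1.69% in WT.

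The other 12 complex I events did not pass, with differences from -3.83 to 2.66 points. NDUFV3, an accessory subunit of the peripheral arm, has a long cassette exon of 879 nt (chromosome 1, 108928214 to 108929092) that was mostly skipped. It had 132 of 2358 reads in KO (5.60%, 4.70 to 6.60), against 198 of 2696 in WT (7.34%, 6.39 to 8.39). This was the deepest complex I event, and its exact adjusted p was 0.160. NDUFA10, another accessory subunit, had 3 tested events, with inclusion of 98.4% to 100% in KO and 98.5% to 99.5% in WT. The 123 nt exon of NDUFS6 was included in 787 of 787 reads in KO and 1008 of 1011 in WT. An intron of NDUFB2 gave the widest of the uncalled differences of this complex, at 0.746% in KO and 4.58% in WT (exact adjusted p = 0.432). What counts as inclusion at an intron is not stated.

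Complex II, succinate dehydrogenase, had 1 listed event, an alternative 5' site of its membrane anchor SDHD (chromosome 24, 6171325 to 6172811). Inclusion was 1 of 280 reads in KO and 1 of 35 in WT, so the exclusion form dominated in both libraries. The read numbers themselves differed, as described with the read sums of genes.

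Complex III and its partner cytochrome c had 3 tested events in 2 genes. CYCS encodes cytochrome c, which carries electrons from complex III to complex IV and takes part in apoptosis when it leaves the mitochondrion. At an alternative 5' site of CYCS (chromosome 2, 31897704 to 31897720), inclusion was 657 of 896 reads in KO, 73.3% (70.3 to 76.2), against 1007 of 1133 in WT, 88.9% (86.9 to 90.7). The exclusion form therefore had 239 reads in KO and 126 in WT, although total reads were fewer in KO. Inclusion fell by 15.6 points (the interval of KO minus WT ran from -19.0 to -12.1), with an exact adjusted p of 3.69e-17 and a spread-corrected p of 8.51e-07. The file header explains inclusion in terms of exons, and which site of a competing pair it means here is not stated. An event of CYCS with no defined type (31896686 to 31896862) had 79.0% in KO and 74.7% in WT. That difference of 4.36 points had an exact adjusted p of 0.0258 and was too narrow to be called. UQCRB, a small complex III subunit, was listed with nearly equal numbers, 1401 and 1402 in KO and 1619 and 1619 in WT.

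UQCRC1, a core protein of complex III, had too few reads in KO for the test. At its mutually exclusive exons on chromosome 12, the exon from 9047041 to 9047224 had 15 of 15 reads in KO and 12 of 108 in WT, 11.1% (5.87 to 18.6). The partner exon, from 9048110 to 9048239, had 0 of 15 reads in KO, which allows up to 20%, and 96 of 108 in WT, 88.9%. The libraries thus listed opposite exons of this pair. It passes the same rule at a minimum of 10 reads, and it was named after its values were seen.

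Complex IV, cytochrome c oxidase, and its assembly factors had 4 tested events in 4 genes. COX7A2L is known in mammals for joining complexes III and IV into supercomplexes. Its 135 nt cassette exon (chromosome 3, 23247864 to 23247998) was included in 590 of 624 reads in KO, 94.6% (92.5 to 96.2), against 621 of 758 in WT, 81.9% (79.0 to 84.6). Skipping reads were 34 in KO and 137 in WT. The difference was 12.6 points (9.32 to 15.9), with an exact adjusted p of 4.12e-11 and a spread-corrected p of 0.0357. With inclusion reads of cassette exons halved, the difference was 20.3 points, so its size depends on how inclusion reads are weighted. The other 3 genes did not pass. COX18, needed to insert a core subunit into the inner membrane, had 31 of 36 reads for a 101 nt exon in KO (86.1%) and 43 of 44 in WT (97.7%), a difference of -11.6 points (-26.5 to 0.707; exact adjusted p = 0.510). COX19, another assembly factor, had 93.0% in KO and 85.2% in WT at a 116 nt exon, 7.79 points apart (1.93 to 13.1; exact adjusted p = 0.153). The subunit gene COX5A had 99.1% in KO and 96.7% in WT at an alternative 3' site.

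The ATP5 genes, named for the ATP synthase, had 11 tested events in 10 genes, of which 1 changed, against a background of 4.7% of all tested events. Names alone set this class, and whether each protein is a subunit of the enzyme was not checked. ATP5H encodes subunit d of the stalk that holds the catalytic head. At its alternative 5' site (chromosome 18, 10900666 to 10900734), inclusion was 213 of 307 reads in KO, 69.4% (63.9 to 74.5), against 386 of 456 in WT, 84.6% (81.0 to 87.8). Inclusion fell by 15.3 points (the interval of KO minus WT ran from -21.4 to -9.20), with an exact adjusted p of 3.76e-05 and a spread-corrected p of 0.0731. ATP5G1, which encodes the c subunit of the rotor ring, lay just short of the minimum difference at its 5' site (chromosome 27, 3495383 to 3495459). It had 78.7% (73.3 to 83.5) in KO and 68.9% (64.0 to 73.5) in WT, 9.84 points apart, with an exact adjusted p of 0.0821.

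ATP5G3, a second c subunit gene, had the deepest events of the mitochondrial genes. Its 5' site (chromosome 7, 16151322 to 16151337) had 3954 of 4260 reads in KO, 92.8% (92.0 to 93.6), against 4970 of 5236 in WT, 94.9% (94.3 to 95.5). The difference of -2.10 points had an exact adjusted p of 0.000798 but was far below 10 points, and its spread-corrected p was 0.274. Its other event had no defined type and listed 3427 and 3425 reads in KO and 3572 and 3572 in WT. Events with no defined type listed exactly equal numbers in WT in 5 of 12 mitochondrial cases, so their 2 numbers need not be competing isoforms. In the head of the enzyme, a cassette exon of ATP5A1, the alpha subunit, was included in 1172 of 1173 reads in KO and 1029 of 1029 in WT. One of ATP5C1, the gamma subunit, had 98.5% in KO and 97.2% in WT. ATP5B, the catalytic beta subunit, had 64.1% in KO and 66.3% in WT in an event with no defined type. ATP5J, a peripheral stalk subunit, used a minor form at similar levels, 16.9% in KO and 17.6% in WT.

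**Figure D2:**
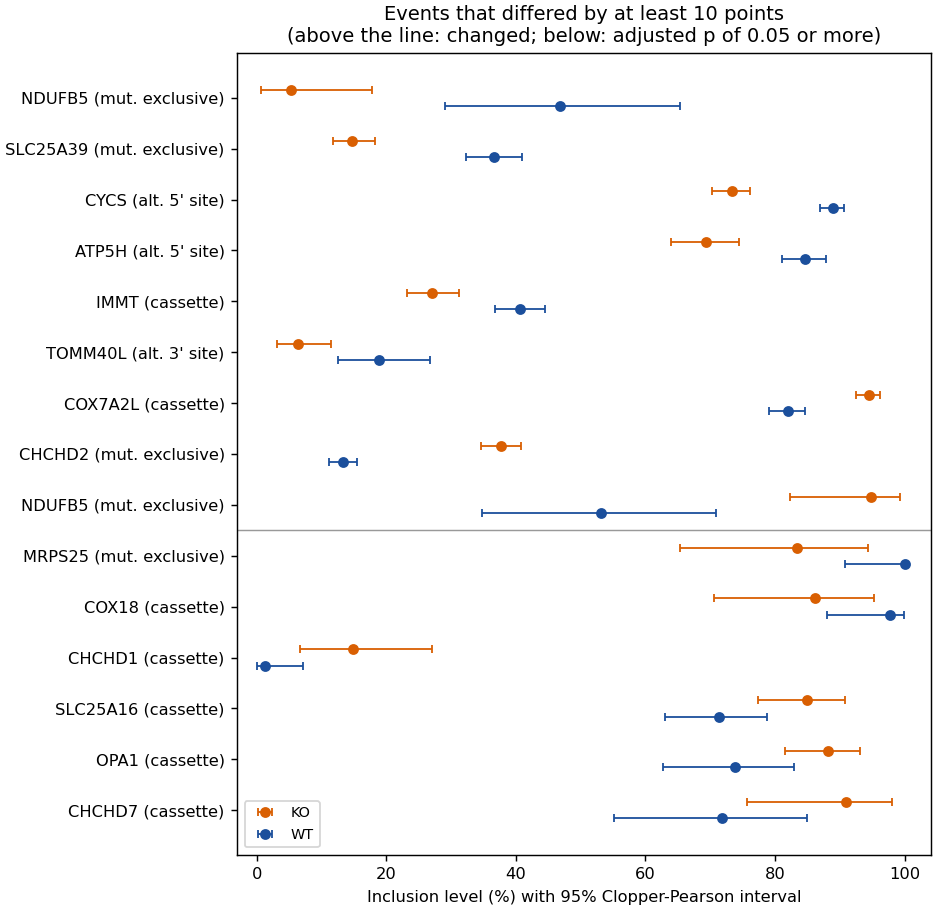
Inclusion level (horizontal axis, percent) with 95% Clopper-Pearson intervals in the KO and WT libraries for each tested event that differed by at least 10 points, 1 library each. The 9 events above the line passed the test and the 6 below it did not. Those above are the rows of COX7A2L, CYCS, ATP5H, IMMT, SLC25A39, CHCHD2, TOMM40L and NDUFB5. They were called on these same counts, so the gaps between their intervals are not separate evidence.

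The MRPL and MRPS genes, named for the mitochondrial ribosome, had 15 tested events, 9 with MRPL names and 6 with MRPS names. Names alone set these classes, and whether each protein belongs to that subunit, or to the ribosome, was not checked. None of the 15 events was called, against a background of 4.7%. At an unadjusted Fisher's exact p under 0.05 there was 1, that of MRPS25. CHCHD1, also a protein of this ribosome, was counted by its name with the CHCHD genes and is described with them. The spread-corrected p called none of the 15 either, but its factor is never below 1, so it could hardly add calls to the exact test. The authors' deposited table gave none of the 15 an adjusted p under 0.05, which only 1.67% of all listed events had there. Neither result adds evidence that these events were unchanged. Under MRPL names 8 of 9 events differed by less than 5 points. MRPL20 gave the deepest of them, a 78 nt cassette exon (chromosome 21, 2213108 to 2213185) included in 425 of 427 reads in KO and 960 of 961 in WT. MRPL47 had the widest difference, at an alternative 3' site, with 3 of 38 reads in KO (7.89%) and 4 of 23 in WT (17.4%), an interval of -29.9 to 7.09 points that the depth left wide. MRPL47 is the neighbour of NDUFB5 in GRCg7b, and the assignment of reads between them was not checked.

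In the small subunit, MRPS33 used 2 forms at a 5' site (chromosome 1, 57170507 to 57170528), with inclusion of 26.7% (22.6 to 31.1) in KO and 31.0% (26.8 to 35.4) in WT. Its exact adjusted p was 0.723. MRPS25 had 25 of 30 reads in KO (83.3%, 65.3 to 94.4) and 38 of 38 in WT (90.7 to 100) at a 15 nt mutually exclusive exon (chromosome 12, 19721648 to 19721662). The difference was -16.7 points (-33.6 to -3.58), with an exact adjusted p of 0.156. The same position is also listed under NR2C2, the neighbouring gene in the GRCg7b gene table, with fewer reads (4 of 9 in KO and 3 of 3 in WT), so its gene is uncertain. The MRPS7 exon, with 6 reads in KO and 5 in WT, is also listed under its neighbour GGA3, there with the same counts.

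MRPL35 had a mutually exclusive row with too few KO reads for the test (chromosome 4, 85051227 to 85051312). It listed 0 of 11 inclusion reads in KO, which allows up to 27.3%, and 85 of 89 in WT, 95.5% (88.9 to 98.8). The position falls between the 2 listed IMMT exons on the same chromosome, and IMMT and MRPL35 are neighbours in GRCg7b, so this row cannot be assigned to MRPL35 with certainty. It passes the same rule at a minimum of 10 reads and was named after its values were seen.

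Protein import had 3 tested events. TOMM40L is a paralogue of TOMM40, the channel of the outer membrane. At its alternative 3' site, on an unplaced scaffold (4790 to 4816), inclusion was 10 of 156 reads in KO, 6.41% (3.12 to 11.5), against 24 of 127 in WT, 18.9% (12.5 to 26.8). Inclusion fell by 12.5 points (the interval of KO minus WT ran from -20.7 to -4.80), with an exact adjusted p of 0.0312 and a spread-corrected p of 0.769. The minor form was the one listed as inclusion in both libraries. In the inner membrane, a 61 nt exon of TIMM17A, a subunit of the TIM23 translocase, was skipped in nearly all reads, at 2.80% in KO and 2.54% in WT. In GRCg7b the name TIMM17A matched only as a synonym of TIMM17B, so which paralogue this is remains uncertain. TIMM8A, a small chaperone of the space between the membranes, had 1.56% in KO and 2.14% in WT at a 5' site.

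SLC25 carriers move metabolites across the inner membrane. Of 22 tested events in 13 carrier genes, 1 changed, against a background of 4.7% of all tested events. SLC25A39 is known in mammals for the uptake of glutathione into mitochondria. Its mutually exclusive exon (chromosome 27, 2982058 to 2982117) was included in 71 of 481 reads in KO, 14.8% (11.7 to 18.3), against 180 of 492 in WT, 36.6% (32.3 to 41.0). Inclusion fell by 21.8 points (the interval of KO minus WT ran from -27.0 to -16.4), with an exact adjusted p of 6.34e-13 and a spread-corrected p of 0.838. A 45 nt cassette exon of the same gene (2982431 to 2982475) had 850 of 1504 reads in KO (56.5%, 54.0 to 59.0), against 972 of 1576 in WT (61.7%, 59.2 to 64.1). That difference of -5.16 points had an exact adjusted p of 0.0614. At its alternative 3' site, inclusion had 0 of 184 reads in KO, which allows up to 1.63%, and 1 of 339 in WT.

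SLC25A16 had 102 of 120 reads in KO, 85.0% (77.3 to 90.9), against 97 of 136 in WT, 71.3% (62.9 to 78.7), for a 163 nt cassette exon (chromosome 6, 10220529 to 10220691). The difference of 13.7 points (3.49 to 23.4) had an exact adjusted p of 0.128. A mutually exclusive row of SLC25A16 (10222078 to 10222199) had too few reads for the test, with 3 of 19 in KO and 8 of 14 in WT. Its difference was -41.4 points (-65.2 to -8.54). The other 20 carrier events that were tested and not called lay between -8.82 and 5.88 points. SLC25A36, a carrier of pyrimidine nucleotides in mammals, had 3 tested events with inclusion of 96.2% to 97.4% in KO and 91.5% to 98.4% in WT. SLC25A6, an ADP/ATP carrier and the deepest carrier gene, listed 1727 and 1723 reads in KO and 1845 and 1806 in WT in an event with no defined type. SLC25A3, the phosphate carrier, had 96.1% in KO and 92.7% in WT at an intron (chromosome 1, 46520357 to 46520427), 3.36 points apart (0.263 to 6.67; exact adjusted p = 0.303). As the meaning of inclusion at an intron is not stated, these levels need not mean that it was mostly retained.

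Genes that shape the mitochondrial membranes had 5 tested cassette exons in 3 genes. IMMT encodes mitofilin, the MICOS subunit that organises cristae junctions. Its 15 nt exon (chromosome 4, 85049082 to 85049096) was included in 135 of 498 reads in KO, 27.1% (23.2 to 31.2), against 260 of 641 in WT, 40.6% (36.7 to 44.5). Inclusion fell by 13.5 points (the interval of KO minus WT ran from -18.8 to -7.93), with an exact adjusted p of 0.000117 and a spread-corrected p of 0.577. With inclusion reads of cassette exons halved, the difference was -9.86 points, just under the minimum of 10, with an exact adjusted p of 0.00642. An 81 nt IMMT exon (85054317 to 85054397) did not pass, with 62.5% (57.8 to 66.9) in KO and 55.5% (51.2 to 59.8) in WT, 6.94 points apart, and an exact adjusted p of 0.281. Both lengths are multiples of 3.

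OPA1, the GTPase that fuses inner membranes, had 2 cassette exons whose lengths are also multiples of 3. For the 111 nt exon (chromosome 9, 12544358 to 12544468), inclusion took 119 of 135 reads in KO, 88.1% (81.5 to 93.1), against 59 of 80 in WT, 73.8% (62.7 to 83.0). The difference was 14.4 points (3.76 to 25.9), and its Fisher's exact adjusted p of 0.115 did not pass. In the authors' deposited table this exon had an adjusted p of 0.0293, the only one of the 103 events of the name rule below 0.05 there (0.971%, against 1.67% of all listed events). The 54 nt exon (12549969 to 12550022) had 38.5% (31.2 to 46.2) in KO and 36.1% (27.9 to 44.9) in WT, an interval of the difference from -8.50 to 13.1 points. MFF, which recruits the fission GTPase to the outer membrane, used a 63 nt exon (chromosome 9, 8933332 to 8933394) at 57.4% in KO and 60.9% in WT. Its interval, which covers counting error only, ran from -12.2 to 5.17 points.

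**Figure D3:**
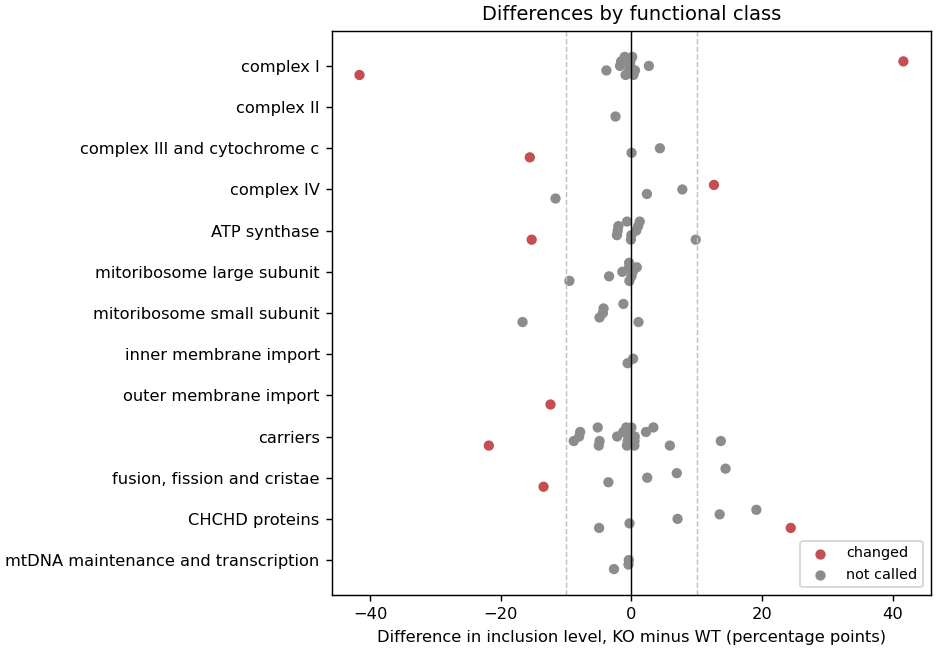
Difference in inclusion level, KO minus WT (horizontal axis, percentage points), for each tested event in 13 functional classes (vertical axis), with the 9 changed events in red, the others in grey, dashed lines at 10 points, and vertical offsets that only keep points apart. Complex II, both mitochondrial ribosome classes, inner membrane import and the mitochondrial DNA class hold grey points only.

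CHCHD proteins carry paired cysteine motifs and mostly work between the mitochondrial membranes, and 6 events in 5 of their genes were tested. CHCHD2, which is known to regulate respiration, had the lowest adjusted p of all these events. Its mutually exclusive exon (chromosome 19, 4903799 to 4903836) was included in 365 of 970 reads in KO, 37.6% (34.6 to 40.8), against 134 of 1011 in WT, 13.3% (11.2 to 15.5). The difference was 24.4 points (20.6 to 28.0), with an exact adjusted p of 9.29e-34 and a spread-corrected p of 0.0633. No partner row of this exon was listed under the gene.

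The other CHCHD events did not pass. CHCHD1, the small-subunit ribosomal protein, had 8 of 54 reads in KO, 14.8% (6.62 to 27.1), against 1 of 76 in WT, 1.32% (0.0333 to 7.11), for a 217 nt cassette exon (chromosome 6, 15499166 to 15499382). The difference of 13.5 points had an unadjusted exact p of 0.00383 and an adjusted p of 0.0619. CHCHD7 had 30 of 33 reads in KO (90.9%) and 28 of 39 in WT (71.8%) for a 99 nt exon, with an exact adjusted p of 0.458. CHCHD4, the receptor of the disulfide import pathway, had 90.7% in KO and 90.9% in WT at a 3' site, a difference between -4.59 and 3.65 points. CHCHD6, a MICOS subunit, had 10.8% in KO and 15.7% in WT for a 21 nt exon.

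Mitochondrial DNA maintenance and transcription were covered by POLG, the DNA polymerase, with 2 tested events, and TFB2M, a transcription factor, with 1. POLG had 57 of 60 inclusion reads in KO at both sites, against 42 of 43 and 42 of 44 in WT, and with equal inclusion reads these neighbouring events may share reads. The 149 nt TFB2M exon (chromosome 3, 33275034 to 33275182) had 96.6% in KO and 97.0% in WT. All 3 differences were under 5 points.

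Over the 30 tested cassette exons, in 25 genes, the length ran from 15 to 879 nt with a median of 97.5 nt, against 102 nt over all tested cassette exons. Lengths divisible by 3 made up 17 of 30 (56.7%), against 57.3% of all. The difference was positive in 12 and negative in 18. Of the 30, 2 changed (6.67%), COX7A2L and IMMT, against 6.07% of all cassette exons.

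Other mitochondrial genes were counted from a list of 159 names that hold enzymes of the citric acid cycle and fatty acid oxidation, tRNA synthetases, proteases, chaperones and porins. Of these, 40 genes had 58 tested events, and 2 changed (3.45%, against 4.7% of all), both with higher inclusion in KO. VDAC2, a porin of the outer membrane, had 40.3% (31.4 to 49.7; 119 reads) in KO and 12.2% (6.26 to 20.8; 90 reads) in WT for a cassette exon on chromosome 6 (14420491 to 14420545), with an exact adjusted p of 0.000261 and a spread-corrected p of 0.708. PDHX, a component of the pyruvate dehydrogenase complex, had 52.9% (40.6 to 64.9) in KO and 19.7% (10.6 to 31.8) in WT in a mutually exclusive row, with an exact adjusted p of 0.00359 and a spread-corrected p of 1.00.

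Event reads were also summed per gene, with mirrored rows counted once, and given as KO over WT after scaling by the library sums. Such a sum covers only the listed events and is not a gene expression level, and no test was made. Of 69 mitochondrial genes with at least 40 event reads in all, 2 were at least 2-fold higher in KO (2.90%, against 6.58% of all genes) and 4 were at least 2-fold lower (5.80%, against 5.57% of all). The median ratio was 0.916, against 1.02 over all genes. SDHD stood highest, with 280 event reads in KO and 35 in WT, a ratio of 8.10 (5.69 to 11.9). NDUFA8, a complex I subunit, had 772 in KO and 320 in WT, a ratio of 2.44 (2.14 to 2.79), in an event with no defined type whose 2 numbers were nearly equal. At the low end, MRPL35 had 11 in KO and 89 in WT, a ratio of 0.125 (0.0603 to 0.235), with the doubt on its gene given above. UQCRC1 had 15 in KO and 108 in WT, a ratio of 0.141 (0.0761 to 0.242). SLC25A1, the citrate carrier, had 44 in KO and 103 in WT, a ratio of 0.433. MRPL20 had 427 in KO and 961 in WT, a ratio of 0.450 (0.400 to 0.505). Each of these 6 ratios rests on 1 listed event or 1 mirrored pair. CYCS, with 2 events, had 2522 in KO and 3648 in WT, a ratio of 0.700 (0.665 to 0.737).

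**Figure D4:**
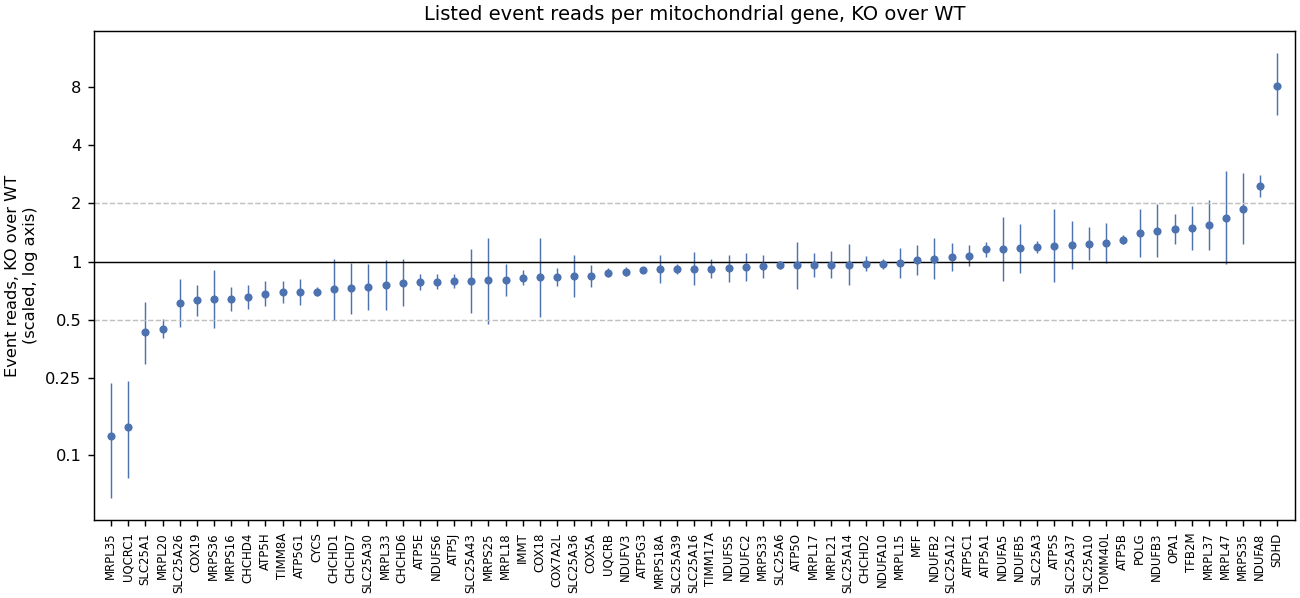
Scaled ratio of listed event reads, KO over WT (vertical log axis), with 95% intervals for counting error, for the 69 mitochondrial genes in order of their ratio (horizontal axis), with dashed lines at 2-fold. SDHD and NDUFA8 lie above the upper line, and MRPL35, UQCRC1, SLC25A1 and MRPL20 lie below the lower one.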

How the data were processed

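Paired-end libraries were made from poly(A) RNA, 1 for each genotype, per the labels' protocols. The submitters' processing notes name galGal4 as the build and TopHat2 2.0.6 and Cufflinks as tools, with no event caller. The deposited table holds raw exclusion and inclusion read counts per event and library, per the file headers. It also holds the authors' adjusted p-value, whose test is not stated in the headers.

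Rows with more than 2 numbers per library (276 of 10652) were left out, and 63 repeated rows were removed, which left 10313 events. The inflation of an event type was its median chi-square divided by the median that counting noise gives, over events whose 4 expected counts reached 5. The factor used as divisor was never taken below 1. Cassette exon length was end minus start plus 1. Of 76 member names, 75 matched a symbol or a synonym in the GRCg7b gene table, used for names and neighbours only. The members, gene lists, tests and alternatives were chosen with earlier results of these data known. By rule the text names all events called, those at least 10 points apart, those under 0.05 in the authors' table, the deepest and widest of each class, and all tested events of genes with 3 or more. Other events, such as those of COX19, ATP5G1, NDUFB2, MFF and CHCHD4, were chosen after their values were seen. Protein and exon sequences were not used here. Simulated data were used to test how changes are called. The simulated counts held counting noise only, without further spread between libraries. They therefore cannot show how often such spread gives a call. Scripts ran under Python 3.11.15 with NumPy 2.4.6, pandas 2.3.3, SciPy 1.17.1 and, for the plots, matplotlib 3.10.9.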

Additional observations from a re-analysis of the deposited data

How the results depend on the processing

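The count of 9 changed among 87 mitochondrial events (286 of all 6089 tested events) became 4 (156) with a minimum difference of 20 points. It was 1 (142) with the authors' deposited adjusted p and 2 (55) with the spread-corrected p, among the same tested events. Without undefined and mutually exclusive events it was 5 of 70 (241 of 4454). With all counts halved it became 6 of 74 (91 of 4630), and with cassette inclusion reads halved 8 of 83 (233 of 5779). Without mutually exclusive rows alone, an alternative chosen after seeing the data, it was 5 of 82 (241 of 5999). Under the authors' adjusted p the 1 call was OPA1, and 0 of the 9 were kept. The signs of the differences could hardly change, since most alternatives left the read counts as they were and the others only halved them. Minimums of 10, 50 and 100 reads, the last chosen after seeing the data, gave 12 of 92 (317 of 7283), 7 of 68 (221 of 4178) and 7 of 54 (147 of 2639). A Fisher's exact adjusted p under 0.01 gave 8 of 87 (215 of 6089), without TOMM40L. Events of 20 to 50 reads could show only wide differences. No paired analysis was possible because each genotype had 1 library, and no library could be left out for the same reason.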
